A study of Mus musculus with 6 samples.

Results

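Skeletal muscle genes were followed in the mouse retina as a group of genes foreign to that tissue. The group holds 10 genes of fast striated muscle (Acta1, Tnnc2, Tnni2, Tnnt3, Myl1, Mylpf, Myh1, Myh2, Myh4 and Ckm). They were chosen by name, after a median of such genes on SH-42 replicate 1 was already known to be low, and were found through the RefSeq accession that each probe carries. They are read by 12 of the 39429 probes on the array, with 2 probes each for Myl1 and Tnnt3, and 8 of the 10 genes are among the 24055 features (genes, or unnamed probes) that passed the filter on dim probes. Myh1 and Myh2 did not pass it, since they were well above background on fewer than 3 arrays.

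Retinas came from adult male C57BL/6 mice, 12 per group, 7 days after the right eye was injected in the vitreous with 1 µM of a compound, SH-42 or SH-80 (code names), or with phosphate-buffered saline for the control group. Each tube pooled 4 retinas. Each of the 6 arrays carried RNA labelled with a compound in the Cy3 (green) channel and RNA labelled control in the Cy5 (red) channel, with 3 arrays for SH-42 and 3 for SH-80 and no exchange of dyes. At 12 mice per group and 4 retinas per tube a group would give 3 pools, while 6 arrays carry RNA labelled control. The labels do not say whether arrays shared control pools, nor that replicates came from separate extractions, so the errors below measure the spread between these arrays. All log ratios are log2 of Cy3 over Cy5. The series' value table was deposited as Cy5 over Cy3, so which channel holds the treated RNA is not settled, and statements here are about channels.

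Skeletal muscle fibres contract when calcium binds troponin on the actin filament and lets the myosin heads of the thick filament pull on it. Fast fibres use their own versions of these proteins, which the genes above encode, and regenerate ATP through creatine kinase. The retina contains no striated muscle, but the extraocular muscles insert on the sclera that encloses it. In pooled tissue, fewer cells of a type and less RNA per cell cannot be told apart.

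The heavy chain genes Myh2, Myh1 and Myh4 are neighbours in this order on chromosome 11 in the RefSeq annotation, between Myh3 and Myh8. RefSeq promoter sequences (build GRCm38.p6, the 250 bases before the annotated start) were at hand for 8 of the 10 genes. Those of the 3 neighbours are shown because they share a run of 20 bases, in capitals, and that of Acta1 because it holds a CArG box, the element bound by serum response factor, also in capitals. The windows lie on the plus strand at chr11:67170777-67171026 for Myh2, chr11:67199852-67200101 for Myh1 and chr11:67237562-67237811 for Myh4, and on the minus strand at chr8:123894776-123895025 for Acta1.
Myh2: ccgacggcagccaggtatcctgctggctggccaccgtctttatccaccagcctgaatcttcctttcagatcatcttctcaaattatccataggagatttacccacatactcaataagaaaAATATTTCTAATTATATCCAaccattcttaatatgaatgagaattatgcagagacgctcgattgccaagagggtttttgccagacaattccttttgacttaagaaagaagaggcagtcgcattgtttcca
Myh1: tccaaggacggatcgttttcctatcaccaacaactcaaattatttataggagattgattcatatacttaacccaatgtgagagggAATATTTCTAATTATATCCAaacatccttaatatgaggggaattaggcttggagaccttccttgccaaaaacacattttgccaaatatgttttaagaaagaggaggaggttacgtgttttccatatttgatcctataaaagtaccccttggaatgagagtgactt
Myh4: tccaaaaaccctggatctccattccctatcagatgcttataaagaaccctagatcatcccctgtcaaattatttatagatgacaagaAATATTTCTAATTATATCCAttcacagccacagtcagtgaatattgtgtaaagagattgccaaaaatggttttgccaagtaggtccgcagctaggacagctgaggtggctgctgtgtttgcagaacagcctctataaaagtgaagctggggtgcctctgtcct
Acta1: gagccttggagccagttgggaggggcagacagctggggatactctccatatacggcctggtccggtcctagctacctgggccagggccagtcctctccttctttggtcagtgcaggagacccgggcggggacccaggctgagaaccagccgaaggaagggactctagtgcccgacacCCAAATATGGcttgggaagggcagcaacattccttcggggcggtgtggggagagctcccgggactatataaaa

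The shared run starts at position -130 from the annotated start of Myh2, at -165 from that of Myh1 and at -163 from that of Myh4. On either strand, a CArG box stood in 2 of the 8 promoters (Acta1 and Myh4) and in 1.47% of all 32851 RefSeq promoters of the same length. The binding motif of MEF2, a factor of muscle differentiation, stood in 2 of the 8 (Myh1 and Myh4) and in 2.92% of all. TATAAA stood in 4 of the 8 and in 12.4% of all, the MCAT motif CATTCC in 4 and 12.6%, and the E-box CANNTG, the motif of myogenic factors such as MyoD, in 6 and 66.2%. In Myh1 and Myh4 a match to TATAAA lies inside the MEF2 match. A match describes letters and not a bound site.

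The arrays carried retinal RNA by its markers. All 10 rod photoreceptor genes listed were well above background in both channels of every array, with array medians of the normalized log2 signal between 16.3 and 16.4 in Cy3 and between 15.8 and 16.5 in Cy5. Spots well above background made up 58.3% to 63.1% of all in the Cy3 channels and 70.9% to 76.7% in the Cy5 channels, and 0 were saturated. SH-42 replicate 1 stood apart from the rest: across features, which are not independent replicates, its log ratios had r from -0.16 to 0.163 with the remaining arrays, whose own pairs had r from 0.471 to 0.866.

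Muscle genes were bright in the Cy5 channel of SH-42 replicate 1 and of SH-80 replicate 2. On these arrays the median log ratio of the 8 genes that passed the filter was -3.02 and -2.88. It was 0.09 and 0.61 on SH-42 replicates 2 and 3, and 0.61 and 0.48 on SH-80 replicates 1 and 3. The median over all features was between -0.02 and -0.03 on every array. The low arrays belong to different compounds, carry different replicate numbers and lie on different slides, SH-42 replicate 1 on the slide with 2 arrays and SH-80 replicate 2 on the slide with 4. The numbers of mice and of retinas per tube would give 3 control pools for 6 arrays. Whether these arrays share control material is not settled by the labels and was not tested. Across features their Cy5 signals had r = 0.972. With the remaining arrays, SH-80 replicate 2 had r from 0.990 to 0.995 in Cy5 and SH-42 replicate 1 from 0.962 to 0.975. The value of SH-42 replicate 1 entered the choice of the genes and is given as a description.

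**Figure D1:**
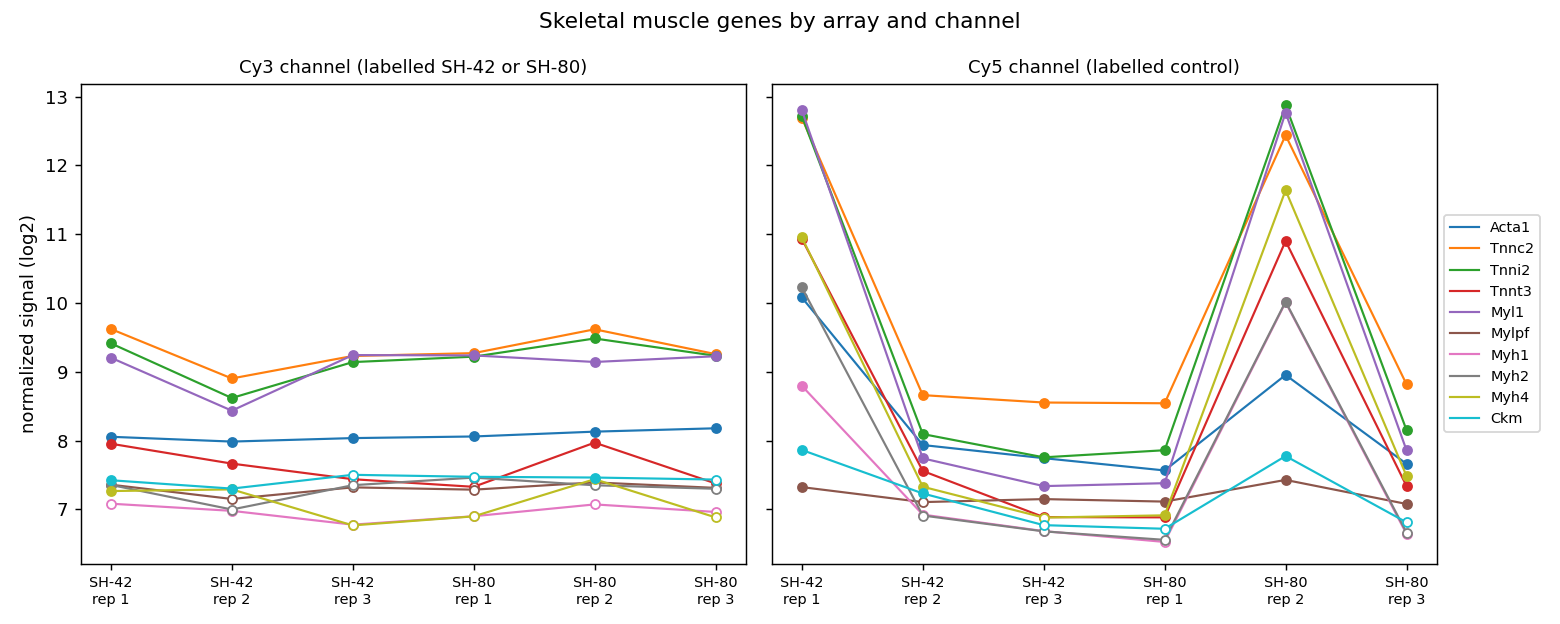
Normalized log2 signal of the 10 muscle genes (brightest probe of each) on the 6 arrays (x axis), in the Cy3 channel (left) and the Cy5 channel (right). Filled points were well above background, open points were not, and lines only join the points of a gene. In Cy5, Myl1 stands at 12.80 on SH-42 replicate 1 and 12.77 on SH-80 replicate 2 and at most 7.86 on the other arrays, whereas in Cy3 it stays between 8.44 and 9.24.

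The muscle genes varied more between arrays in Cy5 than in Cy3. Over the 8 genes, the median span between the highest and the lowest array was 4.10 log2 units in Cy5 (0.349 to 5.46) and 0.657 in Cy3 (0.193 to 0.865). Over all features these medians were 0.385 and 0.179. A Cy5 span of at least 1 log2 unit was found for 7 of the 8 genes (11.5% of all features) and of at least 3 for 5 (0.861%). These spans include SH-42 replicate 1, which entered the choice of the genes, so the Cy5 counts are a description. Ckm, among the 7, passed the filter through SH-42 replicates 1 and 2 and SH-80 replicate 2 alone. A Cy3 span of at least 1 was found for 0 of the 8 (0.491%) and of at least 0.5 for 5 (7.21%). The Cy3 values depended on the scaling of single channels and on SH-42 replicate 2. With loess alone the median Cy3 span was 1.60, with 5 of 8 genes at 1 or more (42% of all features), and the median Cy5 span 4.32. Without SH-42 replicate 2 the median Cy3 span was 0.243. Tnnt3 stood above its own median in Cy3, too, by 0.40 on SH-42 replicate 1 and 0.42 on SH-80 replicate 2. On the same arrays Tnnc2 stood above its own by 0.36 and 0.35, Tnni2 by 0.19 and 0.26, Myh4 by 0.18 and 0.36 and Mylpf by 0.04 and 0.08. Myl1 lay at -0.01 and -0.07 from its median, Acta1 at -0.002 and 0.07 and Ckm at -0.02 and 0.01. On SH-42 replicate 2, too, Myh4 stood above its Cy3 median, by 0.21, and Tnnt3 by 0.11. Cy3 was well above background for Myh4 only on SH-42 replicate 1 and SH-80 replicate 2, and for Mylpf on no array. The thresholds in log2 units here and below were chosen after the values were seen.

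Tnni2, the fast fibre form of the inhibitory troponin subunit, had a normalized log2 signal in Cy5 of 12.72, 8.10 and 7.76 on SH-42 replicates 1 to 3 and of 7.86, 12.87 and 8.15 on SH-80 replicates 1 to 3. Its Cy3 signal was 9.41, 8.62 and 9.14 on the SH-42 arrays and 9.22, 9.49 and 9.23 on the SH-80 arrays. The 2 highest Cy5 values of each gene that passed the filter were on SH-42 replicate 1 and SH-80 replicate 2, as they are here. The log ratios of Tnni2 were -3.30, 0.52 and 1.38 for SH-42 and 1.36, -3.39 and 1.08 for SH-80. Cy5 was thus 9.86-fold above Cy3 on SH-42 replicate 1 and 10.5-fold above it on SH-80 replicate 2, while Cy3 was the higher channel on the other arrays.

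Tnnc2, the calcium-binding troponin subunit of fast fibres, gave Cy5 values of 12.69, 8.66 and 8.55 for SH-42 and 8.54, 12.44 and 8.82 for SH-80. Its log ratios were -3.07, 0.24 and 0.68, and 0.73, -2.82 and 0.44. These correspond to 8.39-fold and 7.06-fold more signal in Cy5 on the low arrays. Tnnt3, the fast troponin subunit that binds tropomyosin, had log ratios of -2.98, 0.11 and 0.55 for SH-42 and 0.44, -2.93 and 0.04 for SH-80 by its brighter probe. Its dimmer probe was not well above background in Cy3 on any array and gave bounds in place of folds. A bound takes for the dim channel the higher of its own value and the lowest signal well above background in that channel of that array. By this probe Cy5 was at least 7.71-fold higher on SH-42 replicate 1 and at least 8.52-fold higher on SH-80 replicate 2, against 7.87-fold and 7.62-fold measured by the brighter probe.

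Among the filament genes, Myl1, the alkali light chain of fast myosin, spanned the most in Cy5, with 5.46 log2 units. Its Cy5 values were 12.80, 7.74 and 7.34 for SH-42 and 7.38, 12.77 and 7.86 for SH-80, and its Cy3 values 9.21, 8.44 and 9.24, and 9.24, 9.14 and 9.23. The log ratios were -3.60, 0.69 and 1.90 for SH-42 and 1.86, -3.62 and 1.37 for SH-80. The gene thus had the lowest and highest ratios far apart in either compound, with Cy5 higher by 12.1-fold and 12.3-fold on the low arrays. Its second probe, not well above background in Cy3 on any array, gave at least 4.24-fold and at least 2.89-fold there.

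Acta1, the actin of skeletal muscle thin filaments, had log ratios of -2.02, 0.05 and 0.29 for SH-42 and 0.49, -0.82 and 0.52 for SH-80. Cy5 was 4.07-fold and 1.77-fold above Cy3 on SH-42 replicate 1 and SH-80 replicate 2, so the arrays were less alike in this gene than in the troponins. Its Cy3 signal spanned only 0.193 log2 units over the 6 arrays (7.99 to 8.18).

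The fast myosin heavy chains, the motors of the thick filament, were near background except in Cy5 of the same arrays. Myh4, the heavy chain of the fastest fibres, had Cy5 values of 10.95, 7.33 and 6.88 for SH-42 and 6.91, 11.64 and 7.49 for SH-80. Its log ratios were -3.69, -0.04 and -0.11, and -0.02, -4.20 and -0.60. This was the lowest ratio of the 8 genes on either low array, with Cy5 12.9-fold and 18.4-fold above Cy3. These folds are narrowed by the offset, since Cy3 was dim. The scanner's processed signals were 989 in Cy5 and 34.3 in Cy3 on SH-42 replicate 1, and 1422 and 35.5 on SH-80 replicate 2. Myh1 was well above background only in Cy5 of SH-42 replicate 1 (8.80) and SH-80 replicate 2 (10.01), where Cy5 was at least 3.28-fold and at least 6.81-fold higher. Myh2 was well above background in Cy5 on the same arrays (10.23 and 10.02) and in Cy3 on SH-42 replicate 1 alone, where Cy5 was 7.31-fold higher. On SH-80 replicate 2 Cy5 was at least 6.36-fold higher for Myh2. On the remaining 4 arrays Myh1 and Myh2 were not well above background in either channel, and no ratio is given. Heavy chain genes are similar in sequence, and whether each probe reads its own gene alone was not tested.

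In normalized Cy5 signal, Mylpf and Ckm differed less between arrays than the other members. Mylpf, the regulatory light chain of fast myosin, had log ratios of 0.04, 0.05 and 0.17 for SH-42 and 0.17, -0.04 and 0.23 for SH-80. Its probe was not well above background in Cy3 on any array and reached 7.43 in Cy5 at most, on SH-80 replicate 2, next to 7.32 on SH-42 replicate 1. Ckm, the creatine kinase of muscle, had log ratios of -0.44, 0.07 and 0.73, and 0.76, -0.31 and 0.62. Its Cy5 signal spanned 1.15 log2 units, with the highest values on SH-42 replicate 1 (7.86) and SH-80 replicate 2 (7.78). It was well above background on SH-42 replicates 1 and 2 and SH-80 replicate 2, and Cy5 was 1.36-fold and 1.24-fold above Cy3 on SH-42 replicate 1 and SH-80 replicate 2. On its remaining 3 arrays both channels were dim, so those 3 log ratios carry no fold.

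**Figure D2:**
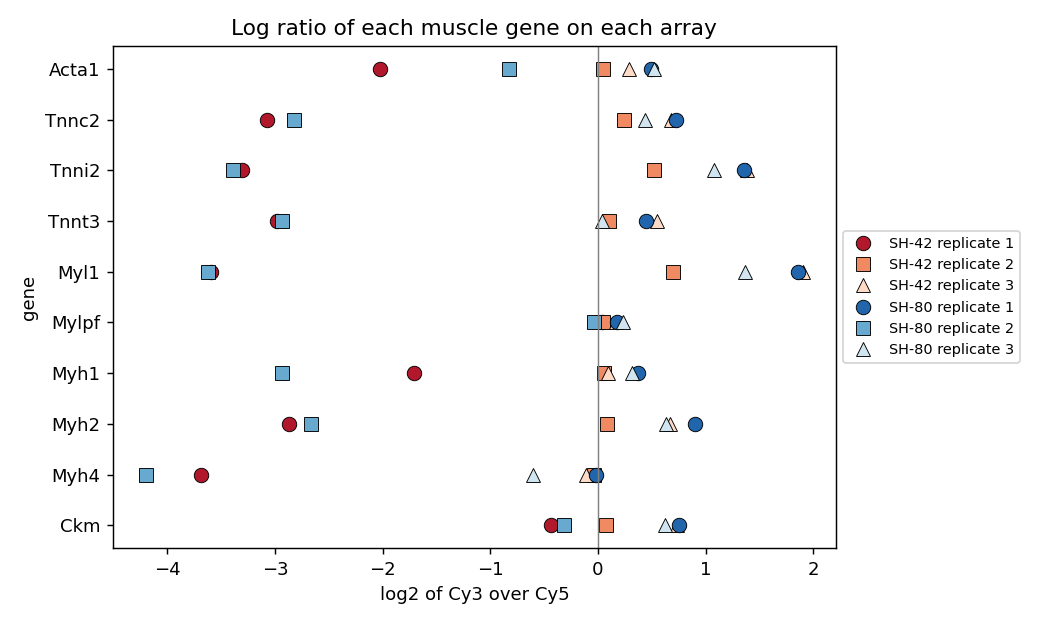
Log2 of Cy3 over Cy5 (x axis) of each muscle gene (y axis, brightest probe) on each array, with symbols for arrays. Myh1 and Myh2 did not pass the filter on dim probes and are shown at their measured values. SH-42 replicate 1 and SH-80 replicate 2 are the lowest arrays for each gene, by a small distance for Mylpf and Ckm.

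Counted per array, 6 of the 8 genes had a log ratio at or below -1 on SH-42 replicate 1, where 4.5% of all features did, and 5 of 8 on SH-80 replicate 2, where 1.08% did. On the other 4 arrays 0 of the 8 did, against backgrounds of 0.0291% and 0.478% for SH-42 replicates 2 and 3 and of 0.0831% and 0.195% for SH-80 replicates 1 and 3. Acta1 made the difference between 6 and 5. In Cy5 alone, 6 of the 8 stood at least 1 log2 unit above their own median over the arrays on SH-42 replicate 1 (5.15% of features) and 6 on SH-80 replicate 2 (0.89%). On the other arrays 0 of 8 did, where 0.175% and 0.287% of features did on SH-42 replicates 2 and 3 and 0.0125% on each of SH-80 replicates 1 and 3. Ratios at or above 1 were found for 2 of 8 genes on SH-42 replicate 3 (1.05% of features), SH-80 replicate 1 (1.04%) and SH-80 replicate 3 (1.31%), in each case Myl1 and Tnni2. On SH-42 replicates 1 and 2 (1.9% and 0.0831% of features) and on SH-80 replicate 2 (0.603%) 0 of 8 stood that high. The genes were chosen with their low median on SH-42 replicate 1 known. The counts on that array follow from the choice and are a description.

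Set against the compounds, the muscle genes had no common direction. The array median averaged -0.773 ± 1.97 (SD, n = 3) over the SH-42 arrays and -0.595 ± 1.98 (SD, n = 3) over the SH-80 arrays, so the spread between arrays exceeded each mean. No test was made for SH-42, since an SH-42 array entered the choice of the genes. In a limma fit of the 3 SH-80 arrays, 0 of the 8 genes passed an adjusted p of 0.05 (Benjamini-Hochberg over all features) and 0 passed at that unadjusted level. In the same fit 38.2% of all features passed, 16% with Cy3 and 22.2% with Cy5 higher, and 50.2% passed unadjusted. The estimates ran from -1.61 ± 0.791 (log2 ± SE, n = 3) for Myh4 (limma adjusted p = 0.16) to 0.35 ± 0.208 for Ckm (adjusted p = 0.223). Myl1 lay at -0.13 ± 1.06 (limma adjusted p = 0.93), Tnni2 at -0.32 ± 0.93 (0.807), Tnnc2 at -0.55 ± 0.689 (0.553) and Tnnt3 at -0.82 ± 0.644 (0.352). Of the 8 genes, 7 had both signs among the 3 SH-80 arrays, the exception being Myh4.

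SH-80 replicate 2 decided these values. Without it, 8 of the 8 genes passed (limma, 2 arrays, where 42.3% of all features passed), 7 with a positive estimate and Myh4 with a negative one. Myl1 then lay at 1.61 ± 0.0911 (limma adjusted p = 5.25e-17), Tnni2 at 1.22 ± 0.0848 (adjusted p = 2.16e-14) and Myh4 at -0.31 ± 0.095 (adjusted p = 0.00882). Without SH-80 replicate 1 or 3, 0 of the 8 passed. The array left out for the 8 calls is the one on which these genes were low, so the calls are a description. Their small errors lean on the variance that limma shares across features, with 36.0 degrees of freedom against 5.48 with 3 arrays. On the 2 arrays left in, Ckm was not well above background in either channel, so its call says nothing about which channel was higher. Mylpf, Tnnt3 and Myh4 were not well above background in Cy3 there. Of the 8 calls, those of Acta1, Tnnc2, Tnni2 and Myl1 rest on signal in both channels.

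A minority of the other genes listed for striated muscle had low ratios on the same arrays. Of 82 further muscle genes listed, 66 passed the filter on dim probes. A ratio at or below -1 was found for 16 of them on SH-42 replicate 1 (4.5% of all features), 14 on SH-80 replicate 2 (1.08%) and 0 on each other array. Their medians were -0.34 and -0.30 on SH-42 replicate 1 and SH-80 replicate 2 and between -0.01 and 0.02 elsewhere. The lists also hold the non-muscle heavy chain Myh14 and genes bright on every array, such as Tpm3 and Rapsn (mean log2 signals 14.2 and 14.5). The counts and medians depend on this makeup. Of 12 energy metabolism genes, 5 and 4 were at or below -1 on SH-42 replicate 1 and SH-80 replicate 2, among them Cox8b, a muscle and heart subunit of cytochrome oxidase, at -1.63 and -1.45. Eno3, the muscle enolase, lay at -0.42 and -0.72 and Pygm, the muscle glycogen phosphorylase, at -0.24 and -0.50.

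Of 15 further sarcomere genes, 5 and 5 were at or below -1 on SH-42 replicate 1 and SH-80 replicate 2, with Tcap, a cap of titin at the Z disc, at -1.47 and -1.93. Tpm1, a tropomyosin also made outside muscle, stood at 0.08 and -0.12. Of 11 genes of slow and cardiac fibres, 3 and 2 were that low. Tnnt1, the slow troponin T, lay at -1.31 and -0.14, and Actc1, the cardiac actin, at -0.74 and -1.34, so the low array differed between them. Of 12 genes of calcium handling, only 1 was that low on either array. Cacna1s, the calcium channel of the muscle membrane, lay at -0.47 and -0.09 and Pvalb, a calcium buffer that retinal neurons also contain, at -0.01 and -0.72.

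Regulators of muscle identity had no ratio that low. Of 7 myogenic factor genes measured, 0 were at or below -1 on any array, with Myf6, a factor of mature fibres, at -0.01 on SH-42 replicate 1 and -0.29 on SH-80 replicate 2. Of 5 genes of the neuromuscular junction, 0 were at or below -1 either. Rapsn, which clusters acetylcholine receptors, lay at -0.11 and -0.31. In both lists some genes were not well above background in Cy3 on any array, and a small ratio of those carries little information. Smyd1 and Mef2c of the myogenic list and Rapsn were well above background in both channels of every array. Their mean log2 signals were 10.2, 9.88 and 14.5. They were also bright on the arrays where the muscle genes were low in Cy5. Their small ratios therefore say little about muscle RNA either.

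Genes with a like pattern over the 6 arrays were then sought among the features with a gene symbol, the members left out. Likeness was measured as the Euclidean distance between a gene's 6 log ratios and the array medians of the 8 genes. The nearest were Cox6a2, a muscle subunit of cytochrome oxidase (0.438), the heavy chain genes Myh3 (0.648) and Myh8 (0.665), Mb, the oxygen store myoglobin (0.76), Sln, an inhibitor of the calcium pump (0.95), and Ckmt2, the mitochondrial creatine kinase of muscle (1.1). Then came Cbr2, a carbonyl reductase (1.59), and Emp1, an epithelial membrane protein (1.61). Thus 6 of the 8 nearest were in the lists of further muscle genes, which hold 66 of the 15912 features with a gene symbol (0.415%). The distance is taken to medians that include SH-42 replicate 1, so the low values of these genes on the low arrays follow from how they were chosen and are a description. For comparison, the members themselves lay between 0.219 (Tnnc2) and 4.23 (Mylpf) from their own medians.

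Myh3 and Myh8, of embryonic and perinatal fibres, are the heavy chain genes that flank Myh2 and Myh4. Myh8 had log ratios of -3.15, 0.12 and 0.70 for SH-42 and 0.73, -3.51 and 0.49 for SH-80. Myh3 had -3.23, 0.14 and 0.63, and 0.90, -2.88 and 1.02. Myh14, a non-muscle heavy chain, lay at -0.61, -0.05 and 0.26, and 0.34, 0.04 and 0.01.

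**Figure D3:**
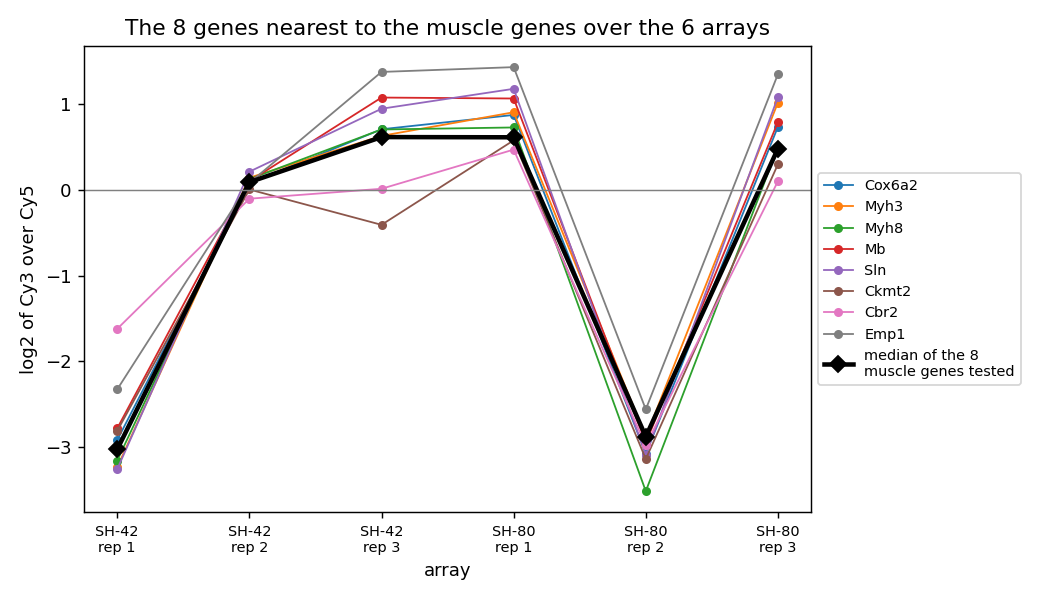
Log2 of Cy3 over Cy5 (y axis) on the 6 arrays (x axis) for the 8 genes nearest to the muscle genes, with the median of the 8 muscle genes tested in black. Lines only join the points of a gene. The genes were chosen for this pattern. Cox6a2, the nearest, stands at -2.91 and -3.07 there.

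Markers of other tissues around the retina moved on these arrays as well, and not alike on both. For scleral and connective tissue, 8 of 10 genes were at or below -1 on SH-42 replicate 1, 3 on SH-80 replicate 2 and at most 1 on any other array. Their summed linear Cy5 signal was 32915 and 11951 on these arrays and 3006 to 5585 on the others, while that of the 8 muscle genes was 25907 and 26011 against 1445 to 1776. Col1a1, a chain of type I collagen, lay at -2.87 on SH-42 replicate 1 and 0.06 on SH-80 replicate 2, and Dcn, a proteoglycan of collagen fibres, at -1.71 and -1.51. For smooth muscle and pericytes, 5 of 9 genes were that low on SH-42 replicate 1 and 0 on SH-80 replicate 2, with Acta2, the smooth muscle actin, at -2.02 and -0.19 and Tagln at -2.04 and 0.51. Summed Cy5 was 30627 and 10327 on these arrays and 7349 to 8892 elsewhere.

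Surface epithelium went the other way round. Of its 7 genes, 0 were at or below -1 on SH-42 replicate 1 and 4 on SH-80 replicate 2, with the basal keratins Krt5 at -0.53 and -3.01 and Krt15 at -0.92 and -3.62. Summed Cy5 was 14292 and 37168 on these arrays and 17799 to 24309 on the others. On SH-42 replicate 3, 1 of the 7 genes was at or below -1, Aldh3a1 at -1.45. Of 5 fat cell genes 0 were that low on any array. Lens fibre genes stood higher in Cy3 on SH-42 replicate 1, with a median of 1.90 and 12 of 12 genes at or above 1. On SH-80 replicate 2 they were split, with a median of 1.01, 6 genes at or above 1 and 4 at or below -1, among them the crystallins Cryaa at -2.92 and Crybb2 at -1.68. They were split on SH-42 replicate 3, too, with a median of 0.59, 5 genes at or above 1 and 4 at or below -1. Their highest medians were on SH-80 replicates 1 and 3 (3.29 and 3.02), where the muscle medians were 0.61 and 0.48. Of 8 genes of nerve sheath and myelin, 1 was at or below -1 on SH-42 replicate 1 and 3 on SH-80 replicate 2. Pmp22, a protein of peripheral myelin, lay at -1.32 and -1.20 there and at 0.39 and 0.44 on SH-80 replicates 1 and 3. The median of the 8 genes was -0.002 on SH-42 replicate 1 and -0.40 on SH-80 replicate 2. On SH-42 replicate 3, 1 of the 8 genes was at or below -1, at -1.28. Of 7 pigment epithelium genes, 1 was that low on SH-42 replicate 1 and 2 on SH-80 replicate 2. Dct, an enzyme of melanin synthesis, lay at -1.26 and -1.56 there and at 0.99 and 1.12 on SH-80 replicates 1 and 3. The median of the 7 genes went the other way, at 0.11 on SH-42 replicate 1 and 0.54 on SH-80 replicate 2. The rod median was 0.53 on SH-42 replicate 1 and 0.03 on SH-80 replicate 2, against 0.04 and -0.05 on SH-42 replicates 2 and 3 and -0.17 and -0.02 on SH-80 replicates 1 and 3. The part of these tissues in the muscle values was not tested.

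**Figure D4:**
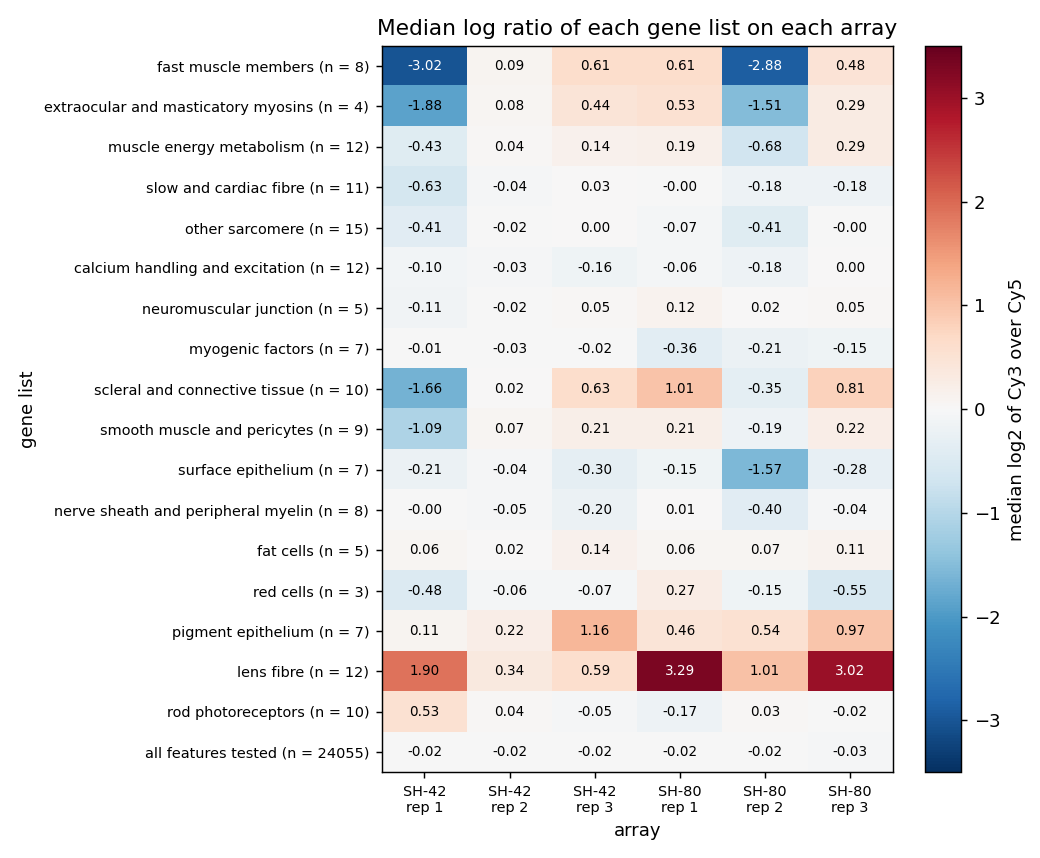
Median log2 of Cy3 over Cy5 (colour and number in each cell) of each gene list (rows, with the number of genes that passed the filter) on each array (columns). The muscle genes stand at -3.02 on SH-42 replicate 1 and -2.88 on SH-80 replicate 2, whereas the scleral list stands at -1.66 and -0.35 and the surface epithelium list at -0.21 and -1.57.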

How the data were processed

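Retinal RNA was measured on 6 two-colour arrays. In the deposited scanner files, per the file headers, spot and local background intensity are given for either channel, with a log10 ratio of the processed red over green signal. Feature Extraction (Agilent) is named as 11.0.1.1 by the headers and as 9.3.2.1 by the submitters' processing notes. The deposited value table holds, from its values, log2 of processed Cy5 over Cy3 plus a constant per array, and 99.7% of its values lay within 0.01 of it. Its column medians were -0.0531, -0.0606 and -0.0612 for SH-42 replicates 1 to 3 and -0.0611, -0.0464 and -0.0754 for SH-80 replicates 1 to 3. Its scale and centring follow from this, and its direction relative to treatment stays unknown. It was used as an alternative.

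Median signals were background-corrected (normexp, offset 50) and loess-normalized within arrays, leaving 1377 control spots and flagged spots out of the fit. Spots of a probe were averaged. Of 39429 probes, 26055 (66.1%) matched a symbol through the RefSeq table (GRCm38.p6), from which names and gene order were taken. A probe had to be well above background in Cy3 or Cy5 on 3 or more arrays, which removed 9977, and the brightest probe stood for its gene. Single-channel values followed loess and Aquantile. The SH-80 arrays were fitted in R 4.3.3 with limma 3.58.1 (lmFit, eBayes), two-sided, data being read with jsonlite 2.0.0 and data.table in version 1.17.8, with Benjamini-Hochberg adjustment over 24055 features and a threshold of 0.05. The script was tested on simulated data. Arrays of 3 per compound limit the precision.

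The 10 genes and all lists were chosen with earlier results of these data known. The genes named were all 10 with every probe, up to 4 of the brightest genes of each other list, and the 8 nearest genes by distance, apart from genes named for their genome neighbours. Alternatives covered background correction, normalization, processed signals and the value table, probe filter and probe choice, slide, the arrays fitted and single arrays left out. Figures were drawn with matplotlib and pandas in Python.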

Additional observations from a re-analysis of the deposited data

How the results depend on the processing

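The array medians of the muscle genes kept their sign on every array under the 9 other settings of background correction, normalization, source of the values and probe choice. They ranged from -3.43 to -1.98 on SH-42 replicate 1, from -3.31 to -2.48 on SH-80 replicate 2 and from 0.0615 to 1.27 on the others. Leaving out each array in turn, the mean of the array medians ran from -1.47 to 0.351 for SH-42 (positive without SH-42 replicate 1) and from -1.20 to 0.545 for SH-80 (positive without SH-80 replicate 2). The median Cy5 span then ran from 3.96 to 4.10 and the median Cy3 span from 0.243 (without SH-42 replicate 2) to 0.657, while with loess alone the Cy3 span was 1.60. SH-42 replicate 1 and SH-80 replicate 2 were both high in Cy5. Leaving out 1 array always kept a high one, so the Cy5 span could hardly move. Leaving out both was not tried. The limma count for SH-80 was 9179 features (41.8% with Cy3 higher). With median centring it was 14444 (26.4% higher, with the median of all features at -0.149 in place of -0.0305), and 1 muscle gene passed, Mylpf at 0.37 ± 0.0865 (limma adjusted p = 0.0101). With all 6 arrays in the fit it was 3526 (31.5% higher), with slide as a fixed block 3175 (31.8%) and as a random block 2369 (29.8%). Leaving out each SH-80 array gave 1852 to 10181 features (3950 without SH-80 replicate 1, 1852 without SH-80 replicate 3) and 0 to 8 muscle genes, 8 without SH-80 replicate 2. With all 6 arrays and the replicate number as a block, an alternative added after seeing the data, it was 0 (limma, 7147 unadjusted), and 0 muscle genes passed. Arrays of the same number in SH-42 and SH-80 had deviations from their group means that correlated at -0.153, -0.431 and 0.181 across features, so the numbers were not taken as pairs. The cause of these shifts was not tested. Dim Cy3 signals limit Mylpf, Tnnt3, Myh1, Myh2, Myh4 and Ckm, for which a small ratio carries little information.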
